A study of Mus musculus with 2 samples.

Results

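Type 1 conventional dendritic cells (cDC1) were examined among the CD45-sorted cells of 143B osteosarcoma xenografts. A barcode was taken as a cDC1 when it carried at least 1 UMI (unique molecular identifier, a counted RNA molecule) of Flt3 and at least 2 UMIs of Xcr1 and Clec9a together. Barcodes with more than 1 UMI of Siglech, with both Ccr7 and Fscn1 detected, or with 2% or more of their UMIs from S100a8 and S100a9 were left out. Of 19826 barcodes that passed the quality filters in both libraries, 113 were cDC1 by this rule, 6 from the control IgG library and 107 from the anti-CD3L1 library.

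cDC1 are a rare lineage of dendritic cells that takes up material from dead cells and presents it to CD8 T cells on MHC class I, a process called cross-presentation. Their development depends on the transcription factors IRF8 and BATF3 and on the cytokine FLT3L, and they carry XCR1, the receptor of the chemokine XCL1, and CLEC9A, a receptor that recognises dead cells. In tumors they are known as a source of IL-12 and of the chemokines CXCL9 and CXCL10, which act on T cells and NK cells.

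143B is a human osteosarcoma cell line, and it was grown in nude mice, which lack a thymus and are deficient in T cells but keep NK cells, B cells and myeloid cells. The hosts were female mice of 4 weeks, and they received 10 mg/kg of a human isotype control IgG or 10 mg/kg of anti-CD3L1, an antibody against CD3L1 (ITPRIPL1). Immune cells were isolated with CD45 magnetic beads and sequenced on the 10x Genomics droplet system. Each group was 1 library made from a set of 3 tumors, and no label tells which cell came from which tumor, so a difference between the groups had no replicate check and every interval below covers counting error only.

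The control IgG library held 74850604 UMIs and 8557 passing barcodes with a median of 5526 UMIs, and the anti-CD3L1 library held 108246719 UMIs and 11269 passing barcodes with a median of 8267 UMIs. The cDC1 were deep cells in both. Their median was 21417 UMIs (18794 to 27477) and 4148.5 genes in the control IgG library, and 17003 UMIs (7370 to 37863) and 3811 genes in the anti-CD3L1 library. The libraries shared 26 passing barcodes, and none of them was a cDC1. RNA outside cells differed between the libraries, with S100a8 and S100a9 making up 6.81% of the UMIs of near-empty barcodes under control IgG and 0.138% under anti-CD3L1.

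The cDC1 share was higher in the anti-CD3L1 library over all passing barcodes and over those with few neutrophil transcripts, and less clearly so among dendritic cells. The 6 cells of the control IgG library were 0.0701% of its passing barcodes (exact binomial 95% interval 0.0257 to 0.153%), and the 107 cells of the anti-CD3L1 library were 0.950% (0.779 to 1.15%). The shares stood in a ratio of 13.5 (6.02 to 37.7), and the intervals did not overlap. Neutrophils, gated by S100a8, S100a9 and Csf3r, made up 64.1% of the passing barcodes under control IgG and 4.25% under anti-CD3L1, and their number enters that denominator. Over barcodes with S100a8 and S100a9 under 2% of UMIs, the cDC1 share was 0.215% (0.0789 to 0.467%) of 2792 under control IgG and 0.995% (0.816 to 1.20%) of 10754 under anti-CD3L1, a ratio of 4.63 (2.06 to 12.9). Among the 4 dendritic cell gates of this work, cDC1 were 6 of 50 cells (12.0%, 4.53 to 24.3%) and 107 of 503 cells (21.3%, 17.8 to 25.1%), and the ratio of 1.77 had an interval of 0.788 to 4.94 that included 1.

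The other dendritic cell gates had smaller ratios between the libraries than cDC1. Type 2 conventional dendritic cells (cDC2), gated by Flt3 and Cd209a, numbered 10 and 67, with a ratio of shares over the same low-S100 barcodes of 1.74 (0.890 to 3.79). Mature dendritic cells, gated by Ccr7 and Fscn1, numbered 16 and 124, with a ratio of 2.01 (1.19 to 3.63). Plasmacytoid dendritic cells, gated by Siglech with Ccr9, Cox6a2 or Klk1, numbered 18 and 205, with a ratio of 2.96 (1.82 to 5.09). The interval of each of these ratios overlapped that of cDC1, and no difference between gates was tested. NK cells had a ratio of 0.771 (0.581 to 1.04) and macrophages of 2.39 (2.14 to 2.67).

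**Figure D1:**
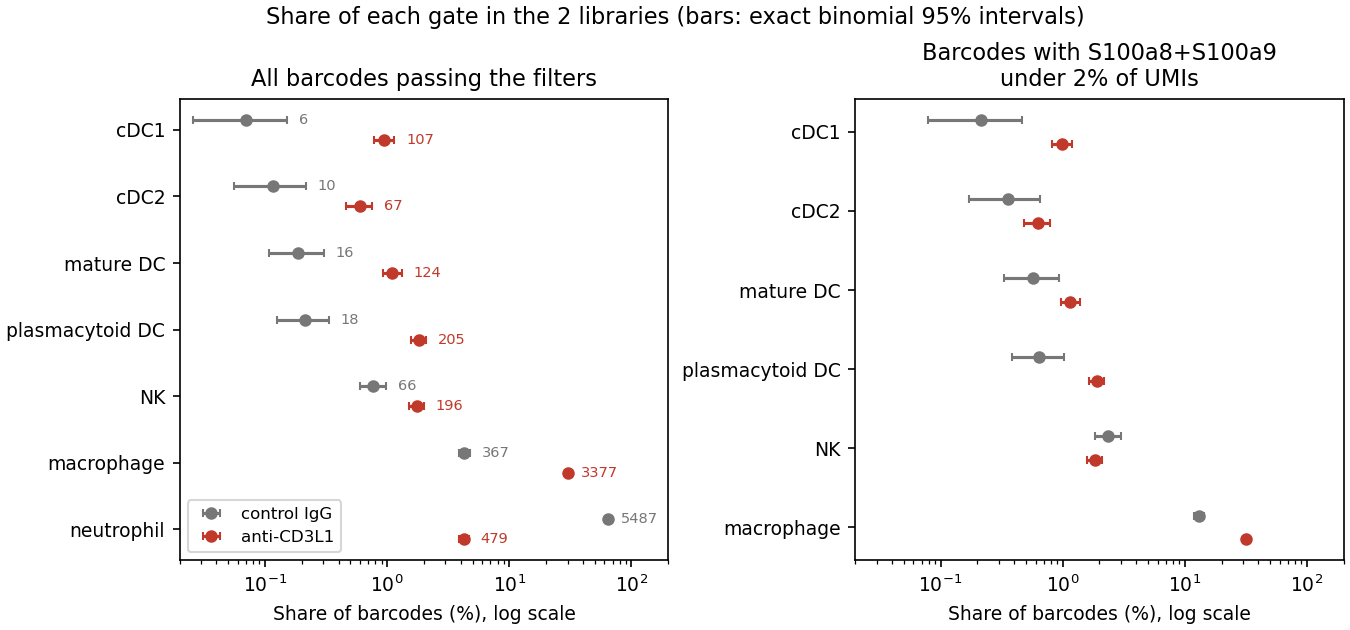
Share of each gate in the control IgG library (grey) and the anti-CD3L1 library (red), in percent on a log axis, over all passing barcodes (left, with the number of cells beside each point) and over barcodes with S100a8 and S100a9 under 2% of UMIs (right). Bars are exact binomial 95% intervals. The cDC1 points sit at 0.0701% and 0.950% on the left and at 0.215% and 0.995% on the right.

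The number of cells depended on the threshold of the gate. In the anti-CD3L1 library, 30 cDC1 lay just inside it with 2 UMIs of Xcr1 and Clec9a together and 77 had 3 or more, while 39 cells that met the other criteria lay just outside with 1 UMI and 261 had none. Levels are in CPM, a gene's UMIs summed over the cells of a gate and scaled to a gate total of 1000000 UMIs. Naaa, a lysosomal amidase typical of cDC1 and not used by the gate, was at 594 CPM in the cells just inside, at 571 CPM in those just outside and at 91.4 CPM in the cells with none. Batf3 was at 107, 112 and 16.5 CPM in the same order. The cells just outside therefore carried levels of both genes near those just inside. C1qa, a macrophage gene, was at 39.6, 108 and 602 CPM. In the control IgG library, 1 cell lay just inside, 5 had 3 or more UMIs, 1 lay just outside and 46 had none.

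The label was checked against cDC1 genes that the gate did not use. All 6 control IgG cells and 81 of 107 anti-CD3L1 cells held Batf3, at 136 CPM (exact Poisson 95% interval 80.5 to 215) and 124 CPM (109 to 142). Naaa was in 6 of 6 and 102 of 107 cells, with 21 to 48 UMIs per cell under control IgG and a median of 11 (0 to 58) under anti-CD3L1. Irf8, the lineage factor of cDC1, was at 1373 and 1254 CPM, and Cst3, a protease inhibitor abundant in conventional dendritic cells, was at 20673 and 15924 CPM. Of the 24 genes of the cDC1 identity list, 23 were detected in the control IgG cells and 24 in the anti-CD3L1 cells, with Tlr12 at 0 in the first. The label thus stood with the markers in both libraries.

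The gate receptors themselves were seen in most cells at few UMIs. In the 6 control IgG cells, Xcr1 had 3, 6, 0, 10, 0 and 7 UMIs and Clec9a 1, 8, 2, 1, 4 and 2 UMIs. Among the anti-CD3L1 cells, Xcr1 ranged from 0 to 11 UMIs with a median of 1 and Clec9a from 0 to 8 with a median of 2. Both receptors were detected in 66 of these cells, Xcr1 alone in 10 and Clec9a alone in 31. These counts are set by the gate and are given as a description. After each cell was thinned to 1000 UMIs, Xcr1 was seen in 7.48% (3.28 to 14.2%) of the anti-CD3L1 cDC1, against 71.0% unthinned, and in 0.0593% of macrophages thinned alike, whose median was 10320 UMIs.

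Genes of other cell types were low in the cDC1 of both libraries. In the control IgG cells, C1qa, C1qc and Mrc1 of the macrophage list, Cd209a, Sirpa, Irf4 and Clec10a of the cDC2 list, Ncr1 of the NK list, Cd79a of the B cell list, every T cell gene and every fibroblast gene were at 0 UMIs. In the anti-CD3L1 cells, C1qa was at 40.3 CPM, against 1501 CPM in all other passing barcodes of that library, Cd209a at 4.91 CPM, Ncr1 at 1.64 CPM, Cd79a at 1.64 CPM and Col1a1 at 0.545 CPM. The macrophage list summed to 75.4 CPM under control IgG and 506 CPM under anti-CD3L1, and its most abundant gene was Apoe in both. The monocyte list summed to 106 and 265 CPM, led by Ccr2. The NK list summed to 7.54 and 34.3 CPM, led by Klrb1c, and the B cell list to 98.1 and 104 CPM, nearly all of it Ighm. The neutrophil list summed to 860 and 28.3 CPM, led by S100a9, and the control IgG value was the larger. The cDC2 list summed to 317 and 364 CPM, led by Klf4, the plasmacytoid list to 257 and 398 CPM, led by Bst2, and the mature dendritic cell list to 1494 and 1629 CPM, led by the activation gene Cd83. These 3 leading genes are not particular to those cell types. The T cell list summed to 0 and 9.81 CPM and the fibroblast list to 0 and 2.73 CPM. In 40 of 107 anti-CD3L1 cells and 0 of 6 control IgG cells, the macrophage, NK, B cell or fibroblast list alone reached 5 UMIs, which the macrophage list did in 32 cells. The neutrophil list, left out of that count, had 12 to 43 UMIs in each of the 6 control IgG cells and at most 4 in an anti-CD3L1 cell. No doublet caller was run.

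**Figure D2:**
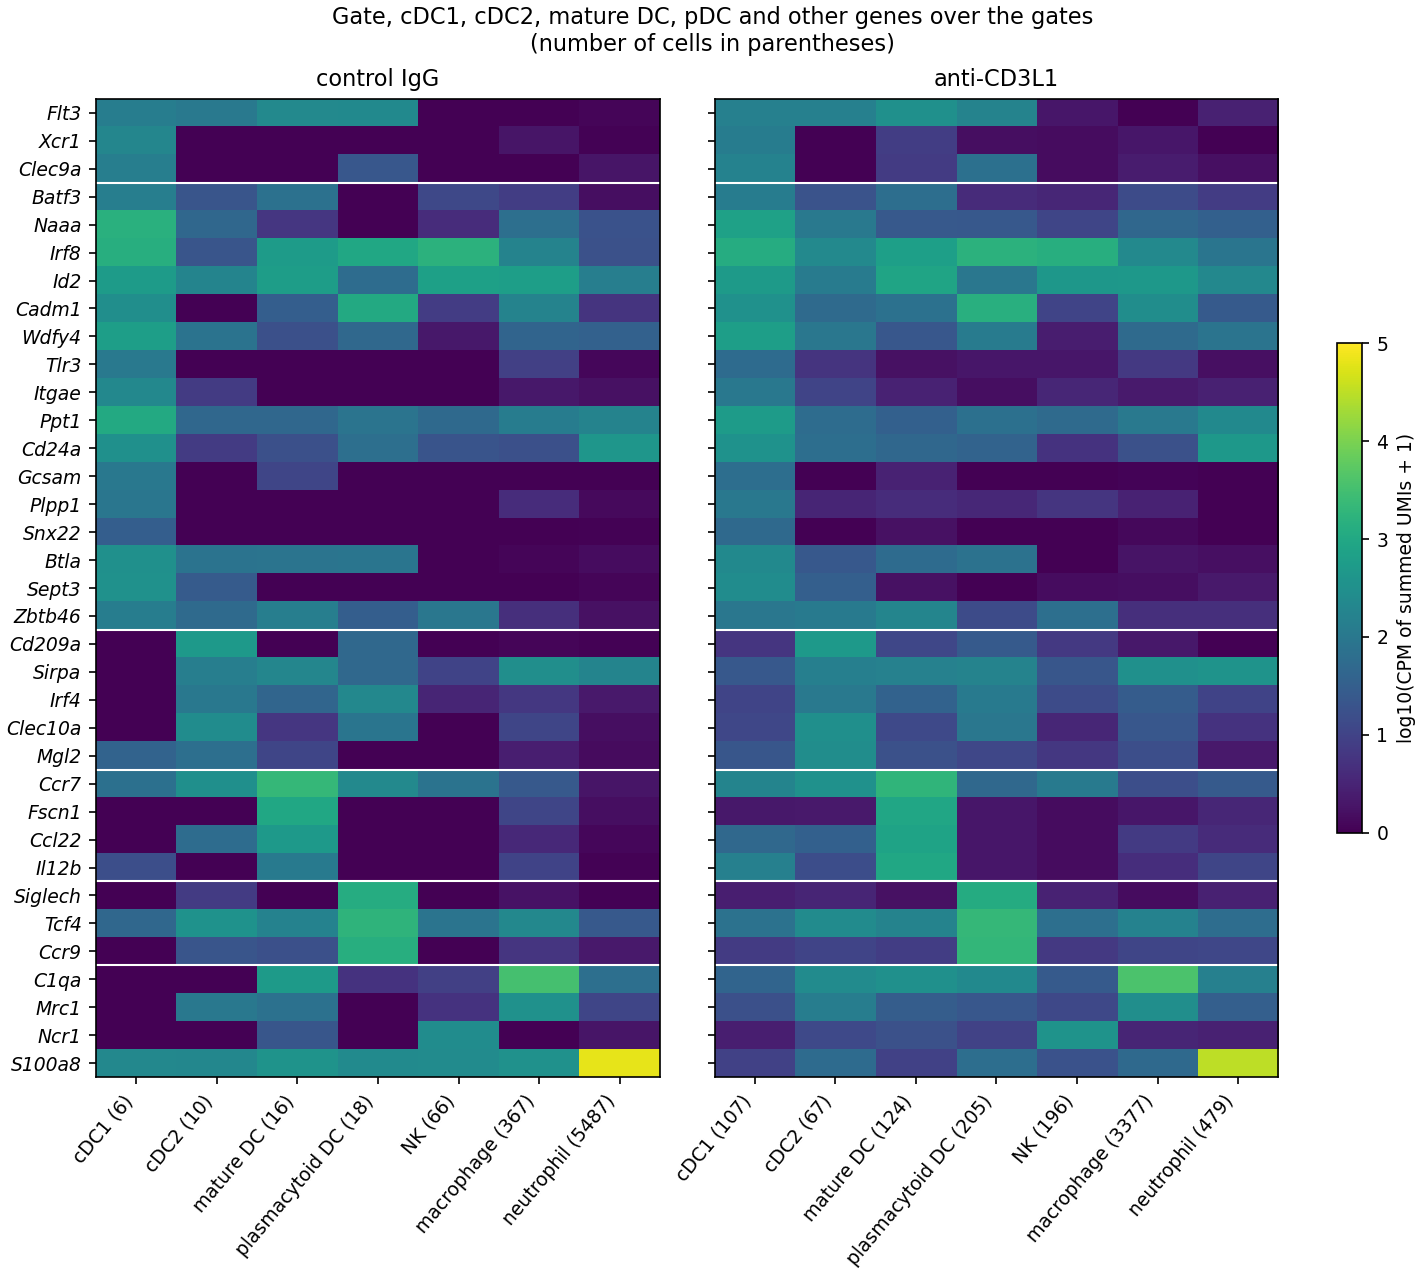
Level of gate genes, cDC1 genes, genes of other dendritic cells and genes of other cell types (rows, separated by white lines) in each gate (columns, number of cells in parentheses) of the control IgG library (left) and the anti-CD3L1 library (right), as log10 of CPM plus 1. The genes Tlr3, Itgae, Gcsam, Plpp1, Snx22 and Sept3 are bright in the cDC1 column of both libraries and dark in most other columns, while Irf8, Id2 and Cadm1 are also high in other gates.

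The genes that led the cDC1 over all other passing barcodes of the anti-CD3L1 library were mostly outside the list. Among genes of at least 100 CPM that the gate did not use, the highest was Sept3, a septin, at 274 CPM against 3.92 CPM elsewhere, a log2 ratio of 6.12. It was followed by Ccser1 (5.50), the inhibitory receptor gene Btla (5.19), Plpp1, which encodes a phospholipid phosphatase (4.87), the kinase gene Lrrk2 (4.31), Gm36723 (4.24) and Htr7, a serotonin receptor gene (4.12). Lower on the same ranking stood Zfp366 (3.56), Naaa (3.49), Wdfy4, a factor of cross-presentation (3.44), Dpp4 (3.41), Batf3 (3.07) and Cd24a (3.06). These genes were also present in the control IgG cells: Sept3 had 15, 12, 6, 6, 5 and 1 UMIs in them, Btla 12, 11, 7, 4, 4 and 4, and Htr7 36, 25, 23, 22, 5 and 4. The cells were chosen by UMIs of the same profiles, so the ranking describes them and tests nothing.

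cDC1 and cDC2 of the anti-CD3L1 library were set side by side as the 2 conventional dendritic cell gates. Of 3637 genes compared (at least 50 CPM in a gate and 20 UMIs over both), 278 were at least 2-fold higher in cDC1 (7.64%) and 370 at least 2-fold lower (10.2%), with a median log2 ratio of −0.01. Of 21 identity genes compared, 18 were at least 2-fold higher in cDC1, with a median log2 ratio of 2.76. The exceptions were Ifi205 (0.82), Itgax (−0.50) and Zbtb46 (−0.20). Some of the 18 reached 50 CPM through cDC1 alone and so had to be higher there. Among them were Batf3, Tlr3 and Itgae, at 17.7, 4.72 and 9.44 CPM in cDC2. The count and median thus describe the genes compared, not the list. Zbtb46, a factor of all conventional dendritic cells, was at 94.3 CPM in cDC1 and 109 CPM in cDC2. Of 9 cDC2 genes, 8 were at least 2-fold lower in cDC1 (median −3.01), and Klf4 was at −0.24. The same limit holds for cDC2 genes, such as Cd209a, that reached 50 CPM through cDC2 alone. Among the genes lower in cDC1, the largest difference was that of Cd209a (−6.61, on which the cDC2 gate was drawn), followed by Cd209d (−5.18) and the lectin gene Clec10a (−4.88). Irf4, the factor of cDC2, was at −3.42, the cytokine receptor gene Il7r at −4.19, S100a4 at −3.88 and Ifitm1 at −3.33.

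Antigen presentation genes differed little between the subsets as lists. All 10 MHC class II genes compared were lower in cDC1 than in cDC2, by a median log2 ratio of −0.34. Only Ctss (−1.34) and Ifi30 (−1.12), which encode lysosomal enzymes that process antigen, were at least 2-fold lower, beside 10.2% of all genes. H2-Ab1, a chain of the class II molecule itself, was at 5284 and 5748 CPM. Of 16 MHC class I and cross-presentation genes, 4 were at least 2-fold higher in cDC1, beside 7.64% of all genes. They were Wdfy4 (2.76), the immunoproteasome subunits Psmb9 (1.66) and Psmb8 (1.09), and the peptide transporter gene Tap2 (1.49). Cybb, a subunit of the phagosomal oxidase, was alone at least 2-fold lower (−2.81), beside 10.2% of all genes. The class I genes H2-K1 (−0.43), H2-D1 (−0.61) and B2m (−0.54) were slightly lower. The median of these 16 genes was 0.09.

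Some receptor genes for microbial and dead-cell material also differed between the subsets. Of 8 receptor genes compared, 4 were at least 2-fold higher in cDC1, beside 7.64% of all genes: Tlr3, the endosomal sensor of double-stranded RNA (54.5 against 4.72 CPM, log2 ratio 3.53), Ly75, which encodes the uptake receptor DEC-205 (1.80), Cd36 (1.55) and Clec12a (1.20). Tlr2 (−2.14), Clec4a2 (−2.80) and Mrc1 (−3.05) were at least 2-fold lower, beside 10.2% of all genes. A gene that reached 50 CPM through 1 gate alone, such as Tlr3 through cDC1, had to be higher in that gate. The counts in this paragraph therefore describe the genes compared, not the lists. Of 10 costimulation and checkpoint genes compared, 3 were higher in cDC1 and 7 lower, with a median log2 ratio of −0.32. Btla (3.37) and Havcr2, which encodes TIM-3 (1.28), were at least 2-fold higher, beside 7.64% of all genes. Vsir (−1.18) was at least 2-fold lower, beside 10.2%. The genes on which the study centres were low in cDC1. Nrp2, which encodes the semaphorin receptor neuropilin-2, had 53 UMIs in 16 of 107 cells, at 28.9 CPM (21.6 to 37.8), against 111 CPM in cDC2, 331 CPM in mature dendritic cells and 329 CPM in macrophages of the same library. In the 6 control IgG cells it had 0 UMIs, where 3 counts would be 22.6 CPM. Of the 53 UMIs of Nrp2, 18 were in 1 anti-CD3L1 cell, which also held 92 UMIs of the macrophage list. Itpripl1, the mouse gene of CD3L1, was at 30.2 CPM (4 UMIs) under control IgG and 24.0 CPM (44 UMIs) under anti-CD3L1.

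Ligands of the cDC1 receptors were found in other gates. NK cells held 1029 CPM of Xcl1, the ligand of XCR1, under control IgG and 819 CPM under anti-CD3L1, while cDC1 held 0 and 10.4 CPM. Flt3l was at 18.0 and 17.1 CPM in NK cells and at 0 and 3.27 CPM in cDC1. Csf2, which encodes GM-CSF, had no UMI in cDC1 of either library and was at 18.0 and 3.91 CPM in NK cells. The receptor side was led by Csf2rb, the shared chain of the GM-CSF receptor, at 249 CPM under control IgG (22, 3, 2, 2, 2 and 2 UMIs) and 525 CPM under anti-CD3L1, a log2 ratio of 1.08 (0.58 to 1.62) in which 1 control IgG cell held 22 of 33 UMIs.

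The cDC1 of the anti-CD3L1 library were not uniform, for example in cell cycle genes. The 20 genes of the cell cycle list summed to between 97.1 and 10440 CPM per cell with a median of 840, and 29 of 107 cells exceeded 2000 CPM. The 6 control IgG cells lay between 266 and 1747 CPM, within the range of the other library. Mki67, a marker of dividing cells, had UMIs in 39 of 107 cells (36.4%), up to 27 in a cell, and in 2 of 6 control IgG cells with 1 UMI each. At 1000 UMIs per cell it was seen in 6.54% (2.67 to 13.02%) of the anti-CD3L1 cDC1, 1.49% (0.0378 to 8.04%) of cDC2, 7.14% (3.96 to 11.7%) of NK cells and 0% (0 to 1.78%) of plasmacytoid dendritic cells. The intervals of cDC1 and cDC2 overlapped. In summed UMIs, all 20 genes of the cell cycle list were at 2196 CPM in cDC1 and 599.7 CPM in cDC2. Of 11 compared, 9 were at least 2-fold higher in cDC1, beside 7.64% of all genes, with a median log2 ratio of 2.06. Genes that reached 50 CPM through cDC1 alone, such as Top2a, had to be higher there. This count and median therefore describe the genes compared, not the list. Top2a, which encodes a topoisomerase of dividing cells, was at 147 CPM in cDC1 and 8.26 CPM in cDC2 (4.15), and the histone genes Hist1h2ap (6.84), Hist1h1b (5.75) and Hist1h2ae (4.98) were among the highest of the whole comparison. Histone genes are a family of near-identical copies, so reads can be split among them and their single levels are uncertain.

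A second pattern was carried by few cells. Il12b, the subunit of IL-12, had 269 UMIs in 14 of 107 anti-CD3L1 cells, and the highest held 85, 45, 45 and 30 UMIs. The cell with 85 and 1 of those with 45 had 0 UMIs of Batf3, Naaa, Wdfy4 and Clec9a, held 31 and 41 UMIs of Ccr7, and were the only 2 of the 107 with none of Batf3, Naaa and Wdfy4. The second of them and the cell with 30 held 68 and 92 UMIs of the macrophage list, against a median of 3 over the anti-CD3L1 cells. Without these 3 cells and the others with 20 or more macrophage UMIs, the Il12b level over the remaining 100 cells was 65.5 CPM. In the control IgG cells it had 2 UMIs, both in 1 cell. Its level of 147 CPM over all 107 cells stood above cDC2 (14.2 CPM) and below mature dendritic cells (934 CPM). At 1000 UMIs per cell, Il12b was seen in 7.48% (3.28 to 14.2%) of cDC1 and 0.296% (0.142 to 0.544%) of macrophages. Ccr7, the receptor that guides dendritic cells to lymph nodes, was in 42 cells at up to 41 UMIs, while Fscn1, which the gate excluded only together with Ccr7, was in 2 cells. Of the 14 cells with Il12b, 8 also held Ccr7.

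Cells with Il12b differed from the other cDC1 in activation genes and in the summed cell cycle list. Their summed level was 633 against 115 CPM for Ccr7, 986 against 68.8 CPM for the chemokine gene Cxcl9, 442 against 73.2 CPM for Ccl5, 183 against 27.5 CPM for Ccl22, 353 against 129 CPM for the costimulatory gene Cd80, 255 against 75.0 CPM for Cd40 and 404 against 142 CPM for Cd274, which encodes PD-L1. Their cell cycle list ranged from 258 to 1122 CPM per cell, and 0 of 14 exceeded 2000 CPM, while 29 of the 93 cells without Il12b did. Top2a had 0 UMIs in the 14 cells and 270 in the other 93. The 19 cells with 5 or more UMIs of Ccr7 likewise held more Ly75 (426 against 84.1 CPM), Cd274 (475 against 117 CPM) and Ccl22 (219 against 13.7 CPM) than the other 88, and less Tlr3 (6.65 against 63.9 CPM) and Fos (329 against 1117 CPM). The chemokine values rested on few of the 14 cells, since 4 cells held 220 of 232 UMIs of Cxcl9, 101 of them in a cell with 1 UMI of Il12b, and 3 cells held 41 of 43 UMIs of Ccl22 and 80 of 104 of Ccl5. Cd80 and Cd40 were each in 12 of the 14 and Cd274 in 10. The macrophage list was also higher in the 14 cells, at 850 CPM against 455 CPM in the other 93. The groups were also compared over the 100 cells left without those that lacked Batf3, Naaa and Wdfy4 or held 20 or more macrophage UMIs. The 11 with Il12b were at 414 against 116 CPM for Ccr7, 1042 against 55.6 CPM for Cxcl9 and 261 against 78.3 CPM for Ccl5. They were at 118 against 29.4 CPM for Ccl22, 332 against 135 CPM for Cd80, 195 against 67.6 CPM for Cd40 and 302 against 144 CPM for Cd274. The cells left out were chosen after their values were seen. These groups were drawn from the data, and the cells come from 1 library, so the values describe these cells.

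**Figure D3:**
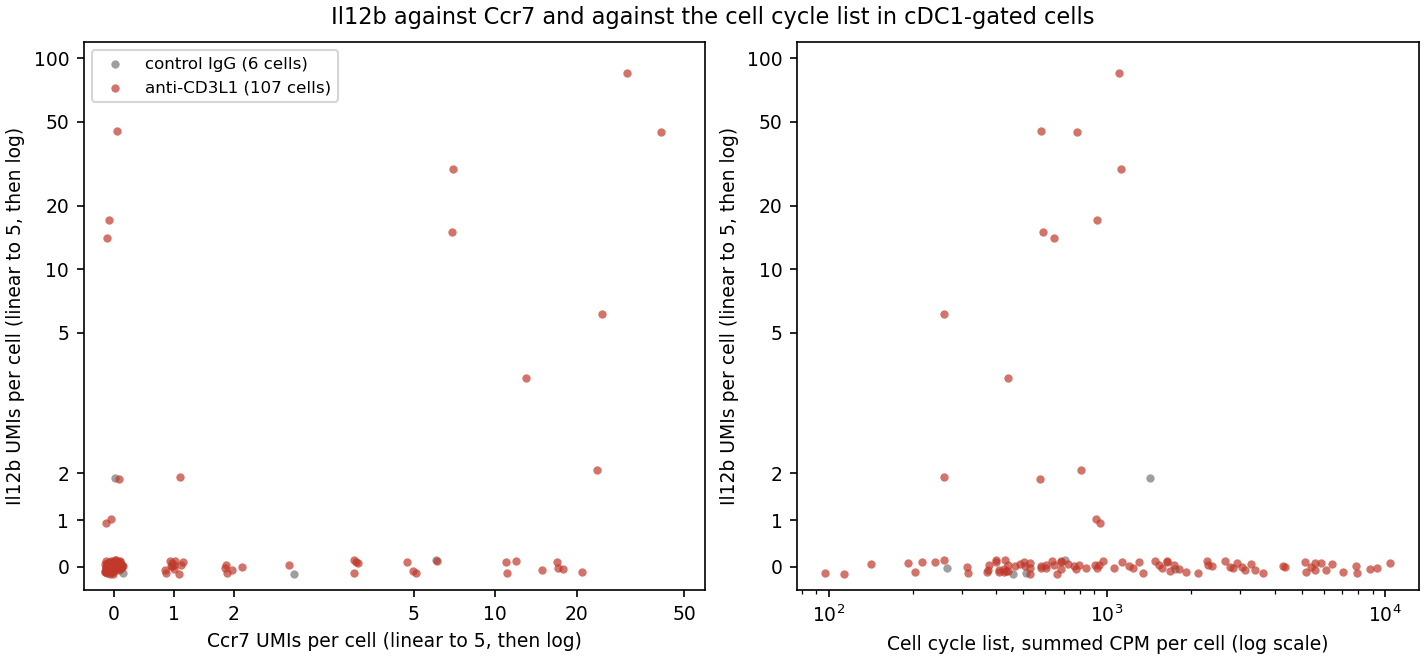
UMIs of Il12b per cDC1 (both panels, vertical axis linear to 5 and then logarithmic) against UMIs of Ccr7 per cell (left) and against the summed CPM of the cell cycle list per cell (right, log axis), for 6 control IgG cells (grey) and 107 anti-CD3L1 cells (red), with a small random shift of whole counts. The cells with Il12b lie below 2000 CPM of the cell cycle list, and cells above it have 0 UMIs of Il12b.

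Cells in which Xcr1 was seen also differed from those chosen through Clec9a alone. The 76 cells with Xcr1 held 409 CPM of Cadm1, an adhesion gene of cDC1, against 114 CPM in the 31 cells without, and 591 against 373 CPM of the lineage factor Id2. Tcf4, a factor of plasmacytoid dendritic cells, was at 48.5 against 150 CPM, Ly6c2 at 27.2 against 150 CPM and Ifitm1 at 34.5 against 438 CPM. These 3 values rested on few of the 31 cells, since 4 cells held 66 of 71 UMIs of Ly6c2, 46 of 71 of Tcf4 and 156 of 207 of Ifitm1. Among the 4 cells highest in Ly6c2 and in Tcf4 were the same 3, which held 75, 45 and 42 UMIs of the identity list, against a median of 346 over the anti-CD3L1 cells. Without the 4 members under 80 UMIs of that list, of which 3 lacked Xcr1, Tcf4 was at 48.7 against 90.3 CPM, Ly6c2 at 27.3 against 47.4 CPM, Ifitm1 at 34.7 against 440.3 CPM and Cadm1 at 406 against 122 CPM. Those members were left out after their values were seen. Clec9a is also carried by some precursors and plasmacytoid dendritic cells, and the share of either among the 31 cells was not tested. In the plasmacytoid dendritic cell gate of the same library, Clec9a was at 70.6 CPM and Xcr1 at 0.523 CPM.

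Gene levels were compared between the libraries within the cDC1, where 132540 UMIs of 6 control IgG cells stood against 1834555 UMIs of 107 anti-CD3L1 cells. Of 3565 genes that reached 50 CPM in either group and 20 UMIs over both, 427 were at least 2-fold higher under anti-CD3L1 (12.0%) and 230 at least 2-fold lower (6.45%), with a median log2 ratio of 0.05. When each control IgG cell was left out in turn, the counts ran from 448 to 492 and from 231 to 318. No gene was tested, since cells of 1 library are not replicates. Log2 ratios below are of CPM, anti-CD3L1 over control IgG, with the 95% interval that counting allows.

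The lineage and antigen presentation lists differed by less than 2-fold in sum between the libraries. Most identity and MHC class II genes were lower under anti-CD3L1, beside a median log2 ratio of 0.05 over all genes. The identity list summed to 28776 CPM under control IgG and 22237 CPM under anti-CD3L1. The MHC class II list summed to 34533 CPM under control IgG and 27508 CPM under anti-CD3L1, and the MHC class I and cross-presentation list to 7590 and 7878 CPM. Of 21 identity genes, 5 were higher and 16 lower under anti-CD3L1 (median log2 ratio −0.31). Of these, 2 were at least 2-fold higher, beside 12.0% of all genes, and 2 at least 2-fold lower, beside 6.45%. Those lower were Naaa (1471 and 719 CPM, −1.03, −1.25 to −0.81) and the integrin gene Itgae, which encodes CD103 (219 and 99.2 CPM, −1.14, −1.71 to −0.52). Those higher were Ly75 (1.89, 0.65 to 3.53) and Cd36 (1.04, −0.35 to 2.94), with 5 and 4 UMIs in the control IgG cells. Both reached 50 CPM through the anti-CD3L1 cells alone and so had to be higher there. Batf3 (−0.13), Irf8 (−0.13), Id2 (−0.02) and Wdfy4 (−0.01) differed by less than their intervals. Of 11 MHC class II genes, 9 were lower (median −0.37), led by H2-Ob, a chain of the peptide-loading modifier H2-O (−1.77, −2.55 to −0.91). H2-Aa was at 7779 and 5869 CPM, with 118 to 234 UMIs in the control IgG cells and a median of 95 in the others. Of 16 MHC class I and cross-presentation genes, 10 were higher (median 0.23), and Nlrc5 (1.30, −0.29 to 3.60) and Cybb (3.0, 0.50 to 8.32) were at least 2-fold higher from 3 UMIs and 1 UMI. These 2 of 16 are a share near the 12.0% of all genes compared, and both genes reached 50 CPM through the anti-CD3L1 cells alone.

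Several interferon-stimulated genes were higher under anti-CD3L1. Over all 20 measured genes of the list the sum was 1358 CPM under control IgG and 2112 CPM under anti-CD3L1, 1.56-fold. Of these, 13 passed the filter and were compared, and 9 of the 13 reached 50 CPM through the anti-CD3L1 cells alone. Among the 13, 11 were higher and 9 at least 2-fold higher, beside 12.0% of all genes, with a median log2 ratio of 1.79. Of the 9 at least 2-fold higher, 8 had passed through the anti-CD3L1 cells alone and so had to be higher there, and the count and median describe the genes compared, not the list. The median ran from 1.50 to 2.16 when each control IgG cell was left out. Isg15, a ubiquitin-like modifier, had 7 UMIs in 1 of the 6 control IgG cells and 0 in the other 5, and 574 UMIs in 75 of 107 anti-CD3L1 cells, at 52.8 and 313 CPM (2.57, 1.51 to 3.89). Irf7, a factor that amplifies type I interferon, was at 45.3 and 263 CPM (2.54, 1.40 to 3.99), and the signal transducer gene Stat2 (1.32, 0.07 to 2.96) was higher as well. Rsad2, the antiviral enzyme viperin, had 0 UMIs in the control IgG cells and 220 in 38 anti-CD3L1 cells, a log2 ratio of at least 2.41 against the floor of 3 counts over the group. Per cell, the list summed to 412 to 703 CPM in 5 control IgG cells and to 5522 CPM in the other, and to a median of 1260 CPM (130 to 15476) in the anti-CD3L1 cells, of which 12 lay above the highest control IgG cell. The groups therefore overlapped.

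Cxcl10, a chemokine gene induced by interferon, was lower under anti-CD3L1 (626 and 74.7 CPM, −3.07, −3.47 to −2.66). Of its 83 UMIs in the control IgG cells, 61 were in 1 cell, 12 and 10 in others and 0 in 3, and without that cell the log2 ratio was −1.40. The same cell held all 29 UMIs of Cxcl9 and both UMIs of Il12b in the control IgG group. Cxcl9 was at 219 and 186 CPM (−0.23, −0.78 to 0.37), with up to 101 UMIs in 1 of the 31 anti-CD3L1 cells that carried it. The chemokine genes of the list thus rested on few cells in either library.

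The promoters of 4 of these genes are printed to show the element through which interferon signalling is known to act on them, the interferon-stimulated response element (ISRE). The sequences are from RefSeq (GRCm38.p6), 100 bases each, on the strand of the gene, and capitals mark matches to GAAANNGAAA or its reverse complement. Isg15 is shown at chr4:156200842-156200941 (minus strand), Rsad2 at chr12:26456518-26456617 (minus), Stat2 at chr10:128270248-128270347 (plus) and Cxcl10 at chr5:92349040-92349139 (minus), all upstream of the start site.
Isg15: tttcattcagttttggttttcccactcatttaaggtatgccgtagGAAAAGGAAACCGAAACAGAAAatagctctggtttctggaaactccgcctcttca
Rsad2: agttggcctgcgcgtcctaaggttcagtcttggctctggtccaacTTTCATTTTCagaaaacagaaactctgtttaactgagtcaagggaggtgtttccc
Stat2: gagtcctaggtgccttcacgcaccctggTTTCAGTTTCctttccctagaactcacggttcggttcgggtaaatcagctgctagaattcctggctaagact
Cxcl10: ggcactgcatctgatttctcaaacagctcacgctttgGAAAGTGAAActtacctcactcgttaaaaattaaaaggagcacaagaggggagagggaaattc

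In the 250 bases before the start, on both strands, 8 of the 17 list genes with a promoter in the table held GAAANNGAAA, against 3.04% of 27025 promoters. Isg15, Rsad2 and Stat2, which were at least 2-fold higher under anti-CD3L1, and Cxcl10, which was lower, held it. Ifit2, Irf7, Ifi44 and Ifih1, also at least 2-fold higher, did not, so the motif was present and absent among the higher genes alike. Of 21 promoters of cDC1 identity genes and gate receptors, 2 held it (Ifi205 and Tlr11). TGANTCA, the motif of AP-1 factors such as BATF3 with its partners, was in 2 of the same 21 (Itgax and Zbtb46), in 4 of the 17 and in 6.87% of all promoters. The motifs do not contain each other, a match is a description of letters only, and binding was not measured here.

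The median log2 ratio of the interferon genes that passed the filter in each gate was lower in the other gates. Since 9 of the 13 genes compared in cDC1 passed through the anti-CD3L1 cells alone, these medians do not rank the gates. In cDC2 the median was 0.01, with 1 of 14 genes at least 2-fold higher beside 9.34% of all genes compared in that gate. In mature dendritic cells it was 0.07, with 4 of 12 beside 9.23%, and in plasmacytoid dendritic cells 0.69, with 5 of 11 beside 8.98%. The background was lower in the larger gates of NK cells (0.30, 0 of 7 beside 1.91%) and macrophages (0.15, 1 of 17 beside 1.85%). In neutrophils the list was at 1.13, with 11 of 18 beside 19.2%, where the median of all genes was itself 0.44. Over all 20 measured genes, the sum was 1358 CPM under control IgG and 2112 CPM under anti-CD3L1 in cDC1, and 2366 and 5520 CPM in neutrophils. It was 2576 and 2331 CPM in cDC2, 3029 and 3123 CPM in mature and 3149 and 3207 CPM in plasmacytoid dendritic cells. NK cells were at 895 and 1007 CPM and macrophages at 3629 and 3877 CPM. The gates differed in the genes compared and in cell number, and their difference from cDC1 was not tested. Within the anti-CD3L1 library the list was level between cDC1 and cDC2 (median 0.02 over 13 genes, with Cxcl9 alone at least 2-fold higher in cDC1).

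**Figure D4:**
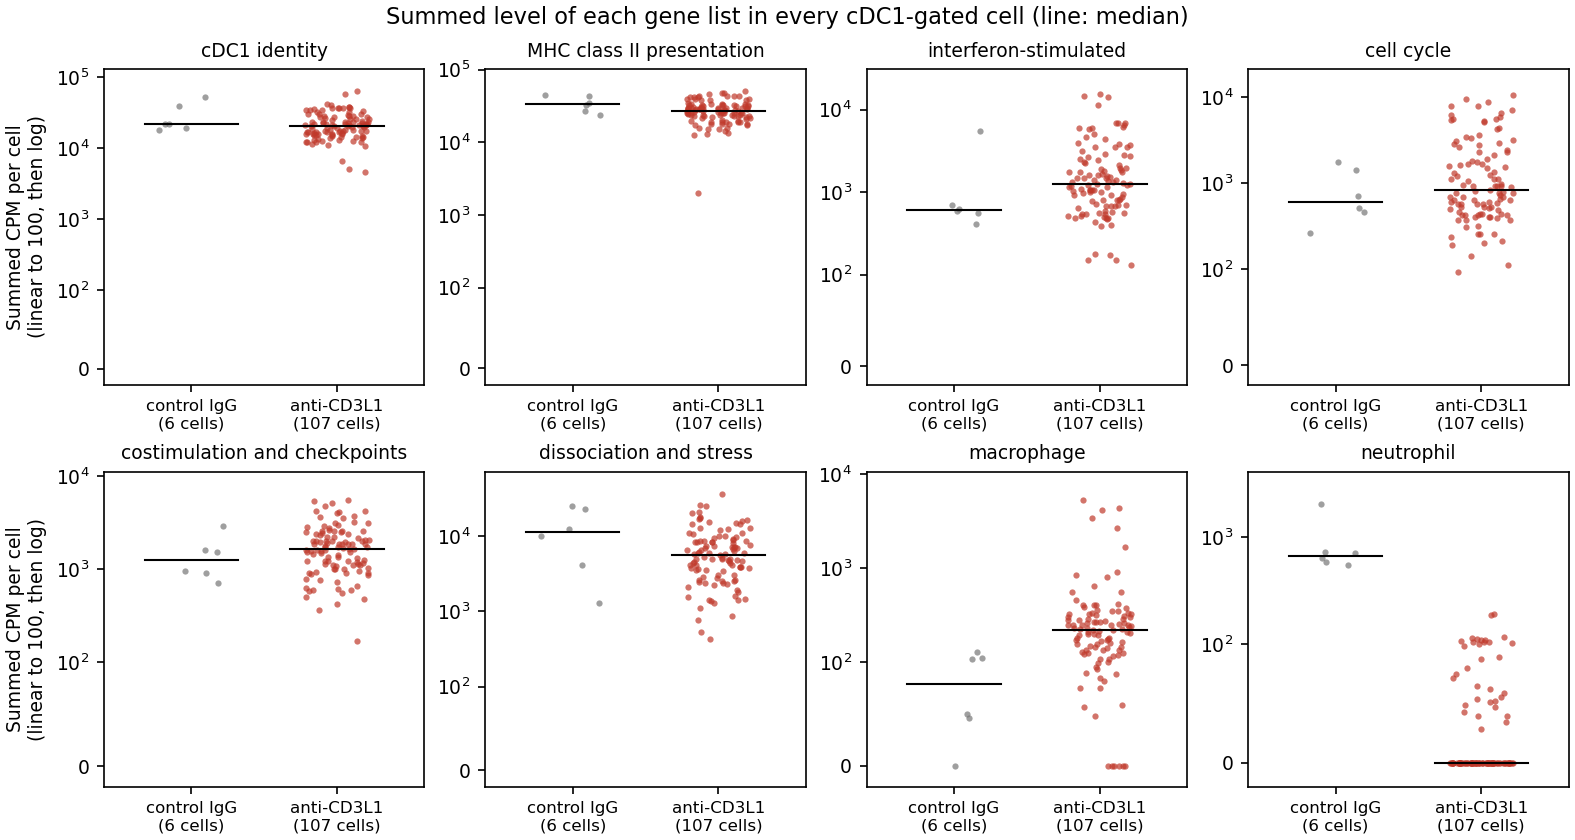
Summed CPM of 8 gene lists in each cDC1 of the control IgG library (grey, 6 cells) and the anti-CD3L1 library (red, 107 cells), on an axis linear to 100 and then logarithmic, with a line at the median. For the interferon list, 5 control IgG cells lie between 412 and 703 CPM and 1 at 5522 CPM, and the anti-CD3L1 cells spread from 130 to 15476 CPM around a median of 1260 CPM.

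The 20 cell cycle genes summed to 898 CPM under control IgG and 2196 CPM under anti-CD3L1. Of 12 compared, 9 were higher under anti-CD3L1 and 6 at least 2-fold higher, beside 12.0% of all genes, with a median log2 ratio of 1.28. Of the 6, 5 reached 50 CPM through the anti-CD3L1 cells alone, so these counts describe the genes compared and not the list. The exception was Hmgb2, which encodes a chromatin protein, at 234 and 696 CPM (1.57). Mki67 had 2 UMIs in the control IgG cells and 211 in the anti-CD3L1 cells (2.93, 1.06 to 5.99), and Stmn1, a microtubule regulator, 3 and 311 (2.90, 1.34 to 5.19). Top2a (270 UMIs, a log2 ratio of at least 2.70), Ube2c (141, at least 1.76) and Birc5 (124, at least 1.58), which act in mitosis, had 0 UMIs in the control IgG cells. These genes are thus at or near 0 UMIs in 6 cells, which leaves their ratios wide. The control IgG cells fell inside the range of the anti-CD3L1 cells, 31 of which lay above the highest control IgG cell and 10 below the lowest.

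Costimulatory genes and cytokines were higher for some members. Of 9 costimulation and checkpoint genes, Cd80 (52.8 and 158 CPM, 1.58, 0.52 to 2.91), Cd86 (279 and 590 CPM, 1.08, 0.61 to 1.59) and Cd274 (60.4 and 176 CPM, 1.54, 0.54 to 2.76) were at least 2-fold higher, beside 12.0% of all genes, and the median was 0.53. Cd80 and Cd86 encode the ligands of CD28. Their UMIs in the control IgG cells were 4, 3, 0, 0, 0 and 0 for Cd80 and 14, 11, 4, 3, 3 and 2 for Cd86, against a median of 1 (0 to 22) and of 8 (0 to 37) in the anti-CD3L1 cells, so both overlapped. Of 11 cytokine and chemokine genes, Il12b (3.28, 1.41 to 6.33, from 2 UMIs), Cxcl2 (2.15, 1.42 to 3.0), Ccl4 (1.72, 1.19 to 2.32) and Ccl5 (at least 2.41, from 0 UMIs) were at least 2-fold higher, beside the same 12.0%, and the median was 0.54. These values rested on few anti-CD3L1 cells, since 4 of 107 cells held 205 of 269 UMIs of Il12b, 158 of 221 of Ccl5, 510 of 1281 of Ccl4 and 576 of 924 of Cxcl2. Il12b and Ccl5 reached 50 CPM through the anti-CD3L1 cells alone and so had to be higher there. The count of cytokine and chemokine genes beside 12.0% therefore describes the genes compared, not the list. Ccl5 was at 0 UMIs in 84 cells, and Il12b was at 65.5 CPM in place of 147 CPM over the 100 cells left as above. Cxcl2, a neutrophil chemokine also made by macrophages, was at 905 CPM in the 40 anti-CD3L1 cells with 5 or more UMIs of the macrophage, NK, B cell or fibroblast list and at 174 CPM in the other 67. The part of those cells in the Cxcl2 difference was not tested. Of 9 growth factor receptor genes, Csf2rb alone was at least 2-fold higher (median 0.37), a share near the 12.0% of all genes.

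**Figure D5:**
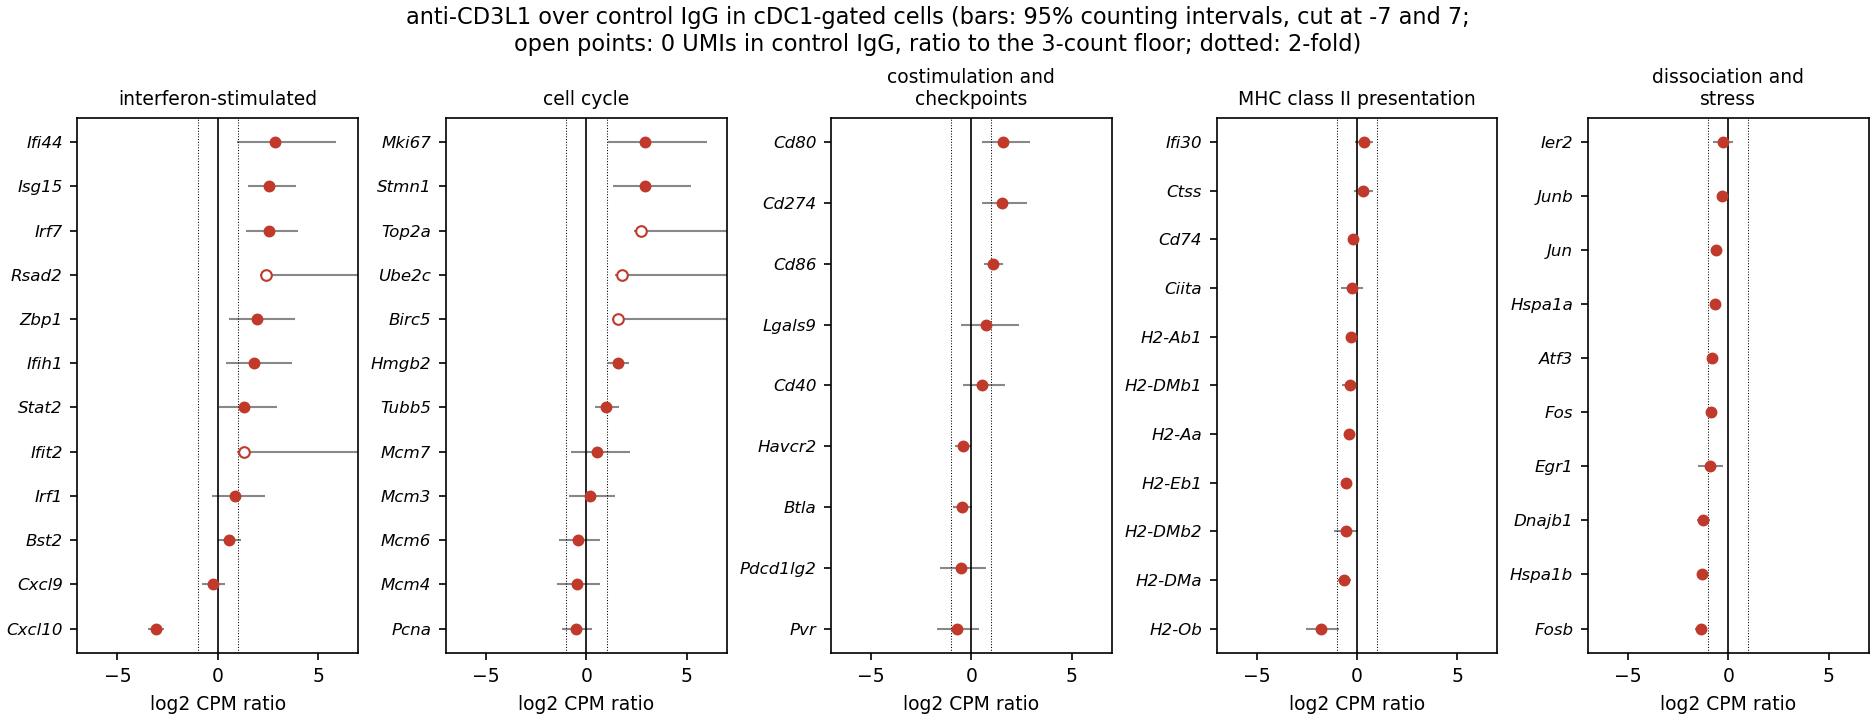
Log2 ratio of CPM, anti-CD3L1 over control IgG, for genes compared in 5 lists in the cDC1, with exact 95% counting intervals cut at −7 and 7. Open points are genes with 0 UMIs in the control IgG cells, set against a floor of 3 counts. The interferon genes drawn, other than Cxcl10 and Cxcl9, lie above 0, and MHC class II genes lie near or below it.

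Stress genes were lower under anti-CD3L1 throughout the list. All 10 genes that respond to tissue dissociation were lower, 3 of them at least 2-fold (Fosb −1.37, −1.65 to −1.08; the chaperone genes Hspa1b −1.31 and Dnajb1 −1.24), beside 6.45% of all genes, with a median of −0.82. Their sum was 13045 CPM under control IgG and 7100 CPM under anti-CD3L1. The control IgG cells varied widely, with 182, 31, 15, 5, 1 and 0 UMIs of the early response gene Fos, and 637, 477, 297, 202, 88 and 28 UMIs of the whole list. In sum, the list was also lower under anti-CD3L1 in plasmacytoid dendritic cells (7991 and 3279 CPM), macrophages (13506 and 6790 CPM) and cDC2 (7331 and 5259 CPM). The same held for mature dendritic cells (5679 and 4240 CPM) and NK cells (4587 and 4051 CPM), while neutrophils were higher (4782 and 7710 CPM). The medians over the genes of the list did not share 1 direction. The median of the list was −0.85 in macrophages, with 4 of 10 genes at least 2-fold lower beside 1.94% of all genes compared in that gate, and 0.99 in neutrophils, with 5 of 10 at least 2-fold higher beside 19.2%. It was −0.31 in plasmacytoid dendritic cells, with 4 of 10 genes at least 2-fold lower beside 3.57% and 1 at least 2-fold higher beside 8.98%. It was −0.09 in NK cells, −0.05 in cDC2 and 0.05 in mature dendritic cells. With 1 library a group, treatment and library cannot be told apart.

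The 10 genes named for the largest differences toward anti-CD3L1 lay outside the interferon list, and 4 of them are described first. Of the 10, only Ifi27l2a reached 50 CPM in the control IgG cells. The others passed the filter through the anti-CD3L1 cells alone and so had to be higher there. Ly6e, which encodes a membrane protein that restricts viral entry, had 2 UMIs in 1 control IgG cell and 781 in 96 of 107 anti-CD3L1 cells, at 15.1 and 426 CPM (4.82, 2.96 to 7.87). Ifi27l2a had 4, 1, 1, 1, 1 and 0 UMIs and then 1178 UMIs in 93 cells, at 60.4 and 642 CPM (3.41, 2.43 to 4.63). Ly6a (3.49, 1.0 to 8.81) and the DNA-sensing family member Ifi203 (3.29, 0.78 to 8.60) had 1 UMI each in the control IgG cells. In RNA outside cells, Ly6e was at 290 CPM under control IgG and 796 CPM under anti-CD3L1, and Ifi27l2a at 1307 and 2441 CPM. Ly6e was also higher under anti-CD3L1 in NK cells (3.63), neutrophils (2.59), cDC2 (1.55), plasmacytoid dendritic cells (1.09) and macrophages (0.74), and level in mature dendritic cells (−0.04).

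Other named genes rested on a single control IgG UMI. Hist1h2ae (4.63, 2.14 to 9.93), Swap70, a regulator of the actin cytoskeleton (3.76, 1.27 to 9.07), the protease gene Capn2 (3.59, 1.09 to 8.90), Acss1, a mitochondrial acetyl-CoA synthetase gene (3.43, 0.93 to 8.74), and Laptm4b (3.36, 0.86 to 8.67) had 1 UMI each there and 342, 188, 167, 149 and 142 UMIs under anti-CD3L1. Their intervals were wide for that reason. Apoe, a lipid carrier gene abundant in macrophages, had 4 and 592 UMIs (3.42, 2.05 to 5.30), and RNA outside cells held 3074 and 8326 CPM of it. Apoe was in 91 of 107 anti-CD3L1 cells, with a median of 2 UMIs and up to 84.

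Of the 10 genes named for the largest differences toward control IgG, most were concentrated in a few control IgG cells. Only Cxcl10 (74.7 CPM) and Rnf157 (142 CPM) reached 50 CPM in the anti-CD3L1 cells. The others passed the filter through the control IgG cells alone and so had to be lower under anti-CD3L1. Mpp7, a polarity scaffold gene, had 66, 39, 17, 0, 0 and 0 UMIs against 3 UMIs in 107 cells, at 920 and 1.64 CPM (−9.14, −11.43 to −7.56). It was lower under anti-CD3L1 in all 7 gates, by −9.14 to −4.98, and RNA outside cells held 81.1 and 1.66 CPM of it. S100a9 (9, 9, 8, 7, 5 and 5 UMIs against 18 in 107 cells, −5.05) and S100a8 (−4.74) were in every control IgG cell, in the library whose RNA outside cells was rich in both, and the part of that RNA in the difference was not tested. Of the 8 genes of the neutrophil list, 5 were seen in those cells, with Retnlg and Lcn2 at 4 UMIs each against 0 in the anti-CD3L1 cells, and Csf3r, Cxcr2 and Mmp9 were at 0. Stfa2 (−6.07), a member of a family of near-identical stefin genes, had 33 of 34 UMIs in 1 cell and was at −1.23 without it. Rnf157 (−2.87) had 119 of 137 UMIs in another, in which Gm13822 (68 of 69), Zfhx3 (24 of 27) and Blm (10 of 12) were also concentrated, and without that cell they were at −0.16, 1.92, −0.27 and −1.10. Dpy19l3 (−4.17) had 10 of 13 UMIs in 1 cell and was at −2.39 without it. S100a9 and S100a8 were thus the named lower genes found in all 6 control IgG cells.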

How the data were processed

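Per the labels, CD45-sorted cells of 143B xenografts gave 1 droplet library for control IgG and 1 for anti-CD3L1. The authors deposited raw UMI counts per gene and barcode for 32285 mouse genes, and the submitters' processing notes name Cell Ranger 7.1.0, Seurat 5.1.0 and GRCm39. A deposited table of the authors' own macrophage comparison (fold changes and p-values) was not used. Barcodes were kept with at least 500 UMIs, more than 200 and fewer than 6000 genes and under 5% mitochondrial UMIs, and no doublet caller was run. RNA outside cells was read from barcodes ranked 45000 to 90000 by UMIs. UMIs were summed per gate and library and scaled to CPM with Python 3.11.15, numpy 2.4.6, scipy 1.17.1 and pandas 2.3.3, and figures were drawn with matplotlib 3.10.9. Intervals at 95% were exact Poisson for CPM, exact Clopper-Pearson for shares and an exact binomial split for ratios, and they cover counting error only. With 1 library a group, no test was run. A gene at 0 was set against a floor of 3 counts. Genes were compared at 50 CPM or more in a group and 20 UMIs or more over both, and called at 2-fold. Genes were named by size of ratio: the 20 leading over the rest of the library, 15 each way against cDC2 and 10 each way between libraries, from which the text takes examples. The members and gene lists were chosen with earlier results of these data known. Some list genes are counted but not reported by name here. The steps were tested on simulated data. The alternatives were other gates, denominators, thresholds, thinning depths and leaving out each control IgG cell.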

Additional observations from a re-analysis of the deposited data

Results flagged for a closer look

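For 11 of the 20 genes named in the comparison between libraries, the difference in cDC1 was opposite in sign to that in at least 1 of the other 6 gates, with both counting intervals off 0, and the difference between the gates was not tested. The 20 genes were picked for the largest differences in cDC1, and each was held against 6 gates. Most of them passed the filter through 1 library alone. No share over all genes stands beside the count, so it is a description and not a result about these genes. All log2 ratios are of anti-CD3L1 over control IgG. Among the genes higher in cDC1, which had 1 to 8 UMIs in the 6 control IgG cells, the histone gene Hist1h2ae was at 4.63 in cDC1 and −1.03 in macrophages. It was also higher in neutrophils (2.95), mature dendritic cells (1.53), NK cells (0.54) and plasmacytoid dendritic cells (at least 0.78). Swap70 was at 3.76 in cDC1, −1.16 in cDC2, −0.86 in plasmacytoid dendritic cells, −0.57 in NK cells, −0.33 in macrophages and 0.85 in neutrophils. Ly6a was at 3.49 in cDC1 and −1.60 in mature dendritic cells. It was also higher in neutrophils (5.78), cDC2 (at least 3.36), macrophages (3.08) and plasmacytoid dendritic cells (0.98). In NK cells it was at 0.30, with an interval that included 0. Acss1 was at 3.43 in cDC1, −1.76 in mature and −1.86 in plasmacytoid dendritic cells. Ifi27l2a was at 3.41 in cDC1 and −0.38 in mature dendritic cells. It was also higher in neutrophils (1.99), macrophages (0.61), NK cells (0.58) and plasmacytoid dendritic cells (0.36), and at −0.10 in cDC2. Ifi203 was at 3.29 in cDC1, −0.52 in plasmacytoid dendritic cells, −0.16 in macrophages and 2.64 in neutrophils. Among the genes lower in cDC1, Cxcl10 was at −3.07 in cDC1, 1.67 in mature and 2.05 in plasmacytoid dendritic cells. In cDC1 it was at −1.40 without the control IgG cell that held 61 of its 83 UMIs. It was also lower in macrophages (−0.89), NK cells (−0.48) and neutrophils (−0.33). Dpy19l3 was at −4.17 in cDC1 and at least 0.49 in plasmacytoid dendritic cells, where control IgG had 0 UMIs. In neutrophils Gm13822 was at 1.12, Zfhx3 at 0.76 and Rnf157 at 2.13, against −3.97, −3.22 and −2.87 in cDC1. Without 1 control IgG cell the cDC1 values were 1.92, −0.27 and −0.16. Gm13822 was also lower in mature dendritic cells (−1.31), cDC2 (−1.14) and macrophages (−0.36), Zfhx3 in macrophages (−0.75) and Rnf157 in NK cells (−0.66).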

How the results depend on the processing

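No paired analysis was possible because each group was 1 library. The values moved most with the depth a barcode needs to pass the gate. The anti-CD3L1 share of 0.950% became 1.30% with 1 UMI or more of Xcr1 and Clec9a together, 0.683% with 3 or more, 0.586% with both receptors required and 0.595% without the 40 cells that carried 5 or more UMIs of the macrophage, NK, B cell or fibroblast list. The control IgG share became 0.215% over barcodes with low S100. Thinned to 1000 UMIs before the gate, the shares were 0% and 0% of 8370 and 10959 barcodes. In alternatives chosen after seeing the data, they were 0.174% and 1.50% over barcodes of at least 7000 UMIs, and 0% and 0.261% thinned to 5000 UMIs. The genes at least 2-fold higher and lower numbered 165 and 86 of 1891 at 100 CPM or more, and 916 and 459 of 6150 at 20 CPM or more. Leaving out each control IgG cell gave 448 to 492 and 231 to 318 genes, and list medians of 1.50 to 2.16 (interferon), 1.06 to 1.39 (cell cycle), −0.36 to −0.22 (identity), −0.51 to −0.26 (MHC class II), 0.04 to 0.39 (MHC class I) and 0.30 to 0.95 (costimulation). Mki67 was seen in 36.4% of anti-CD3L1 cells unthinned and 14.0% at 2000 UMIs, and Ccr7 in 39.3% and 17.8%, against 6.54% and 9.35% at 1000. Without those 40 cells, the interferon median was 1.84 and the cell cycle median 0.99. Of the shares, gene counts and list medians recomputed, 89 values stayed within their error or 1.5 times and 19 did not, and none of these reversed, while the single gene Gm13822 went from −3.97 to 1.92 without 1 control IgG cell. The 6 control IgG cells limit every difference between the libraries.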
